A study of Mus musculus with 4 samples.

Results

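Duct-gene positive acinar cells are cells of the injured mouse pancreas that held many digestive-enzyme transcripts together with transcripts of genes normally marking pancreatic ducts. They were taken from the library made 2 days after caerulein. A cell counted as acinar when at least 10% of its unique molecular identifiers (UMIs, each standing for 1 captured RNA molecule) came from 13 digestive genes (Cpa1, Cpb1, Cela1, Cela2a, Cela3b, Ctrb1, Prss2, Pnlip, Amy2a5, Clps, Cel, Try4 and Try5) and no UMI came from Ptprc, the pan-leukocyte gene. It counted as duct-gene positive when Krt19, Krt7, Cldn4 and Anxa3 together gave at least 2 UMIs. These rules found 393 positive cells among the 708 acinar cells and the 4656 cells of that library that passed the filters on quality (a minimum of 500 UMIs and 200 genes, no more than 20% of UMIs mitochondrial). The cells were thus chosen by measured UMIs of 17 digestive and duct genes and Ptprc, so the levels of these genes are descriptions. All 4 libraries together held 12807 such cells among 17567 barcodes.

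The series comprised 4 libraries of DAPI-negative sorted pancreas cells from wild-type C57BL/6 mice, run on the 10x Genomics 3' assay. S2D (saline) and C2D (caerulein), were taken 2 days after treatment; S6W (saline) and C6W (caerulein) followed a recovery of 6 weeks. The caerulein samples carry the context Pancreatitis and the saline samples Inflammation-naïve. No genetic alteration was part of the groups compared. Their age, the caerulein dose and the number of mice behind a library are not given in the sources used here. Each group was 1 library, so the spread between animals is unknown and no p-value is given. Exact 95% intervals, in brackets, cover counting error only.

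Acinar cells make and secrete digestive enzymes, while duct cells line the tubes that carry the juice to the gut and are built on simple-epithelial keratins and tight junctions. Caerulein mimics the gut hormone cholecystokinin; in excess it drives acinar cells to release enzymes inside the tissue and inflames the pancreas. After such injury acinar cells can lose enzyme expression and switch on duct genes, a reversible change known as acinar-to-ductal metaplasia.

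Depth ranged over the 4 libraries from 29145886 to 71547194 UMIs in all. The positive cells had a median of 10694 UMIs (602 to 155106), 1547 genes and 5 duct-gene UMIs (2 to 216). Digestive genes made up a median of 30.3% of their UMIs (10.05 to 67.2). The 315 acinar cells of the same library with 0 or 1 duct-gene UMIs, called negative cells below, were shallower, with medians of 7409 UMIs and 896 genes, and carried a digestive share of 45.5%. The 483 acinar cells of S2D, taken without any condition on duct genes, had medians of 6086 UMIs, 468 genes and a digestive share of 64.7%. A further reference was 203 ductal-like cells of C2D, which met the same duct-gene and Ptprc rules, had at least 1 UMI of the epithelial adhesion gene Epcam and a digestive share under 10% (median 0.169%). They were the deepest, with medians of 20086 UMIs, 4683 genes and 43 duct-gene UMIs.

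The markers given for these cells are genes of the rule, so their presence is a description. Krt19, a simple-epithelial keratin, had a UMI in 91.9% (88.7 to 94.4) of positive cells, Cldn4, a tight-junction claudin, in 61.1% (56.1 to 65.9), Anxa3, a membrane-binding annexin, in 42.5% (37.6 to 47.5) and Krt7, another duct keratin, in 40.2% (35.3 to 45.2). The carboxypeptidase gene Cpa1 had a UMI in 99.5%. Of the 393 cells, 72 had a UMI of 1 duct gene, 165 of 2, 100 of 3 and 56 of all 4. Of acinar genes outside the rule, Sycn, a zymogen granule gene, had a UMI in 89.8% and Gp2, the main granule membrane glycoprotein, in 75.3%. In ductal-like cells, which were chosen for a low digestive share, these were 44.8% and 5.91%.

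Free RNA was gauged in 108 T cells of C2D, which should lack all these genes (median 6191.5 UMIs). They held a median of 14 digestive UMIs, and 10 of 108 (9.26%) had at least 1 duct-gene UMI and 6 (5.56%) at least 2. Krt19 had a UMI in 3.7% of T cells, Cldn4 in 4.63% and Cpa1 in 59.3%. The positive cells had a median of 3077 digestive UMIs, a level set by the rule.

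The thresholds fell in a continuous spread, shown in the plot of duct-gene UMIs against digestive share. Just inside the duct-gene threshold were 72 cells with a sum of 2 and 44 with 3, and just outside were 112 with a sum of 1, while 203 had 0 and 135 had 10 or more. On the digestive axis, 45 positive cells lay between 10% and 15%, and 16 cells with at least 2 duct-gene UMIs lay between 5% and 10%.

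**Figure D1:**
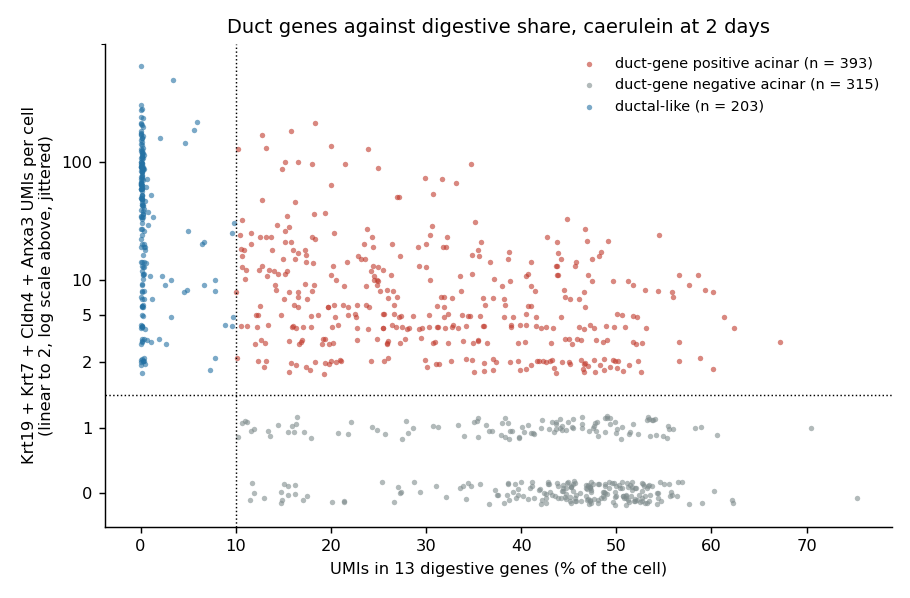
Duct-gene UMIs per cell (vertical, linear to 2 and logarithmic above, with a small jitter) against the percent of UMIs in 13 digestive genes (horizontal) for cells of C2D. Red points are the 393 duct-gene positive acinar cells, grey points the 315 negative cells and blue points the 203 ductal-like cells; dotted lines mark the thresholds, and the positive cells spread from 10.05% to 67.2% digestive UMIs without a gap.

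Other cell types and RNA quality were checked beside these values. Scrublet marked 1 of the 393 positive and 0 of the 315 negative cells as doublets, but it marked only 0.408% of C2D cells, so it did not work well there and its calls were kept in. Genes of macrophages summed to 4124 UMIs in positive cells with 0 of 14 genes at 0; 1 cell held 2027 of them, and the median was 3 UMIs per cell in both positive and negative cells. The fibroblast list summed to 5043 UMIs with 0 of 9 genes at 0 (1892 in 1 cell). In contrast 6 of 8 T and NK genes, 8 of 11 endocrine genes, 5 of 6 mesothelial genes and 4 of 7 tuft genes were at 0. Mitochondrial UMIs were scarce, with a median of 0.0539% in positive cells and 0.0151% in negative cells, against 5.02% in ductal-like cells and 4.38% in T cells. A subset of 55 positive cells had at least 1% mitochondrial UMIs, and these were deeper (24637 UMIs, 3668 genes). Their part in the results was addressed by repeating the comparisons without acinar cells at or above 1%. C2D shared 8, 22 and 7 barcode sequences with S2D, S6W and C6W, and of the positive cells 0, 1 and 1 were among them.

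Few acinar cells outside the C2D library met the same rule. In C2D 55.5% of acinar cells were duct-gene positive (51.8 to 59.2), while in S2D 18 of 483 were (3.73%, 2.22 to 5.83). At 6 weeks the share was 4.25% in S6W (2.61 to 6.48; 20 of 471) and 5.70% in C6W (3.61 to 8.50; 22 of 386). The C2D share lay above the intervals of the other 3 libraries, whose intervals overlapped. T cells of the same library, which should lack duct genes, were set beside as a gauge of free RNA. A single T cell of C2D held 63 of the 94 duct-gene UMIs of its pool, and whether it was a doublet was not tested. In C2D 6 of 108 T cells had at least 2 duct-gene UMIs (5.56%, 2.07 to 11.7), against 55.5% of acinar cells. In the other libraries it was 2 of 195 in S2D (1.03%, 0.125 to 3.66), 0 of 66 in S6W, where 3 counts of the total would be 4.55%, and 3 of 145 in C6W (2.07%, 0.429 to 5.93). The exact intervals of the acinar shares of S2D, S6W and C6W overlapped those of their T cells (0 to 5.44% in S6W). Scrublet marked 3 of 18 (16.7%), 2 of 20 (10%) and 3 of 22 (13.6%) positive acinar cells of S2D, S6W and C6W as doublets. Of their other acinar cells it marked 5 of 465 (1.08%), 5 of 451 (1.11%) and 11 of 364 (3.02%). The part of free RNA and doublets in these shares was not tested.

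The gap remained at equal depth. With each cell thinned to 2000 UMIs, 43.1% of 664 C2D acinar cells had at least 1 duct-gene UMI, against 4.23% of 426 in S2D, 4.34% of 438 in S6W and 8.26% of 363 in C6W. As digestive RNA filled most of a saline cell, cells were also thinned to 300 UMIs outside 35 digestive genes (the 13 of the rule, 19 others, and Zg16, Gp2 and Sycn); the shares were then 19.6%, 4.20%, 5.98% and 3.91% in the order C2D, S2D, S6W and C6W. Unthinned, they were 71.3%, 12%, 18.5% and 21.8%.

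**Figure D2:**
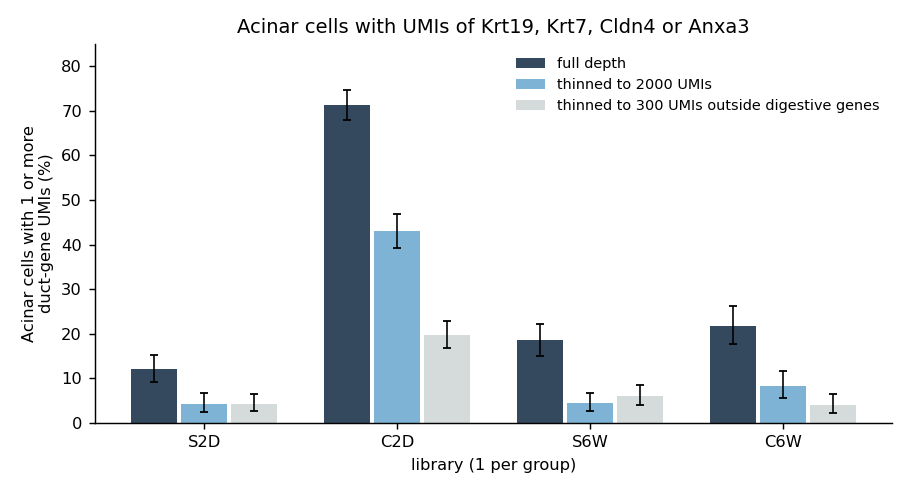
Percent of acinar cells with at least 1 UMI of Krt19, Krt7, Cldn4 or Anxa3 (vertical) in each library (horizontal), at full depth, thinned to 2000 UMIs and thinned to 300 UMIs outside digestive genes; error bars are exact 95% binomial intervals. C2D stands above the other 3 libraries at every depth, at 71.3%, 43.1% and 19.6%.

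The 4 duct genes lie at separate loci of the mouse genome (GRCm38): Krt19 at chr11:100140810-100148665, minus strand, Krt7 at chr15:101411043-101430313, plus strand, Cldn4 at chr5:134945119-134946934, minus strand and Anxa3 at chr5:96793339-96845966, plus strand. Cpa1 lies at chr6:30639218-30645363, plus strand. Their mixture in the positive cells differed from that of ductal-like cells of the same library. Krt19 gave 45.6% of the 5279 duct-gene UMIs of positive cells, Cldn4 37.6%, Anxa3 9.23% and Krt7 7.58%. In ductal-like cells Cldn4 led with 49.0%, followed by Krt19 with 25%, Krt7 with 14% and Anxa3 with 11.9%. These shares involve the genes of the rule and are descriptions.

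The ratio of Spp1 to Krt19 was far lower in positive than in ductal-like cells. As Krt19 chose the cells, this is a description. Spp1, which encodes osteopontin and is abundant in duct cells, gave 0.571 UMIs per Krt19 UMI in positive cells, and 0.225 once 1 cell with 836 of the 1376 Spp1 UMIs was left out. The ratio was 2.58 in negative cells and 10.1 in S2D acinar cells, 30.2 in ductal-like cells and 17.6 in T cells (7.54 without the T cell highest in Spp1). Onecut2, a transcription factor gene, had 0 UMIs in positive cells and 208 in ductal-like cells.

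Promoter sequence is shown for a duct gene of the rule (Cldn4), for the transcription factor gene Sox4, which was higher in positive than in negative cells, and for Tspan1, whose ratio to saline acinar cells was the highest of those named. The sequences come from RefSeq on GRCm38.p6, 5' to 3', and end just before the annotated gene start; all 3 genes are on the minus strand. Capitals mark matches to an AP-1 motif (TGANTCA, bound by Fos and Jun proteins) or a TEAD motif (GGAATG, bound by the partners of YAP), searched on both strands. The first spans chr5:134946935-134947184 (250 bases), the second chr13:28953714-28953949 (236 bases) and the third chr4:116167602-116167848 (247 bases).
Cldn4: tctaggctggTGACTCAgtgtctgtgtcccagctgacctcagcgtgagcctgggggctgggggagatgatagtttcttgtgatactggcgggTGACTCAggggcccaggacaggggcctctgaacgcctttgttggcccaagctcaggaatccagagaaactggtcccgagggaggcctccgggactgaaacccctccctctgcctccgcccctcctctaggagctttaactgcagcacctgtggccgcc
Sox4: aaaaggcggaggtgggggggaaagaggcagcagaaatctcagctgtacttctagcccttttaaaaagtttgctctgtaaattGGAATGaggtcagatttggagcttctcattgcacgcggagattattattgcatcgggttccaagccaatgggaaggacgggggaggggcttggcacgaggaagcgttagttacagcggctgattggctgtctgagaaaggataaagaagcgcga
Tspan1: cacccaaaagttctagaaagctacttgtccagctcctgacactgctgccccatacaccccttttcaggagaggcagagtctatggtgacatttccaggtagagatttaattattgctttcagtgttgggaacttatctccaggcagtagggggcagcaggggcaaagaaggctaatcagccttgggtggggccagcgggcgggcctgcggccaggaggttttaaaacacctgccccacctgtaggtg
The Cldn4 stretch held 2 AP-1 matches, beginning 240 and 158 bases before its end. The Sox4 stretch held 1 TEAD match, beginning 154 bases before its end, and the Tspan1 stretch held no match to either motif. Among 32851 mouse promoters of 250 bases, 6.75% held an AP-1 match and 12.6% a TEAD match. A match is a description of the letters and not a bound site.

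The positive cells were then compared with the negative acinar cells of the same library, which asks what else distinguished acinar cells with duct transcripts. UMIs were summed over cells and scaled by TMM, and levels are TMM-scaled counts per 1000000 (CPM). With this scaling most simple keratin and junction genes and several cytoskeleton and p53-target genes were higher in positive cells. Most ER folding, Reg and remaining digestive genes were lower with it. Of 4269 genes with at least 100 UMIs over both pools, 421 (9.86%) were higher in positive cells by 2-fold or more and 358 (8.39%) were lower, the rule genes left out. The split rests on the scaling: plain CPM gave 2338 higher and 59 lower, and totals without the 35 digestive genes 1183 and 134. The median log2 ratio of all genes was 0.00 with TMM, 1.08 with plain CPM and 0.60 with totals without digestive genes. Without acinar cells at or above 1% mitochondrial UMIs the counts were 186 and 199.

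Simple keratins and junctions was the list with the most genes higher. Of its 21 measured genes (at least 20 UMIs over both pools), 14 were higher by 2-fold or more and 0 lower; the median log2 ratio was 1.12, against 16.1% higher and 9.08% lower among all 9219 genes at that minimum. Krt8, the partner keratin of Krt18, stood at 1201 (1181 to 1221) CPM in positive and 517 (490.2 to 545) in negative cells, a log2 ratio of 1.22 (1.14 to 1.30). Krt18 stood at 1237 and 876 CPM, a log2 ratio of 0.50 (0.43 to 0.56), so it was under 2-fold. The intervals of both keratins did not overlap between the pools. Epcam had a log2 ratio of 1.12 (0.86 to 1.38) and a UMI in 74% of positive against 29.5% of negative cells (32.3% and 9.56% when thinned to 2000 UMIs), with 9.26% of T cells. Among junction genes, Cldn6, a claudin of early epithelia, had a log2 ratio of 1.83 (1.21 to 2.53), Ocln (occludin) 2.16 (0.89 to 3.82) and Tjp1, the scaffold ZO-1, 2.27 (0.87 to 4.18); the last was 1.52 without cells at or above 1% mitochondrial UMIs.

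Sox4, a transcription factor gene of progenitor and transformed epithelia, was higher in positive cells than in every other acinar pool. Its level was 198 (190.4 to 207) CPM in positive cells, 28.7 (22.6 to 35.9) in negative cells, 17.2 in S2D, 14.5 in S6W and 18 in C6W acinar cells, and 222 in ductal-like cells. It had 2283 UMIs in positive cells, with at most 223 in 1 cell, and its log2 ratio to negative cells was 2.79 (2.46 to 3.14). The cells with at least 1% mitochondrial UMIs held 1625 of these UMIs. Without acinar cells at or above 1% mitochondrial UMIs the log2 ratio was 2.33 to negative cells and -0.99 to ductal-like cells; with plain CPM the latter was -1.52. Its share of cells with a UMI was 48.1% against 14.9% of negative cells and 8.33% of T cells.

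Cytoskeleton and adhesion genes were higher in 9 and lower in 2 of 29 measured (median 0.82), against 16.1% and 9.08% of all genes. The alpha-actinin gene Actn1 had a log2 ratio of 1.79 (1.5 to 2.10), the tropomyosin gene Tpm1 1.30 (1.02 to 1.59) and Itgb6, an injury-associated epithelial integrin, 2.81 (0.90 to 5.89). Without cells at or above 1% mitochondrial UMIs Actn1 stood at 1.16. Itgb6 rested on 61 against 2 UMIs and stood at 1.76 without cells at or above 1% mitochondrial UMIs. Of the annexins and S100 list 4 of 15 were higher and 1 lower (median 0.00), led by S100a10 at 2.06 (1.75 to 2.37) and Anxa2, its binding partner, at 1.54 (1.23 to 1.86) (2.69 without those cells). S100a11 had a log2 ratio of 1.04 (0.88 to 1.21). YAP targets were higher in 6 of 10 and lower in 1 (median 1.06), among them Cyr61, a matricellular growth factor gene, at 2.07 (1.70 to 2.46). Only 3 of the list could be measured without cells at or above 1% mitochondrial UMIs. Against S2D acinar cells 1 of 11 YAP targets was higher and 6 were lower (median -1.02, but 0.91 with plain CPM). Against ductal-like cells 0 of 11 were higher and 9 lower (median -1.58). Sprr1a, a cornified-envelope gene, had a log2 ratio of 2.70 (2.17 to 3.29).

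The p53 targets list had 5 of 12 measured genes at least 2-fold higher and 0 lower (median 0.73), against 16.1% and 9.08% of all genes. Trp53inp1, a p53-induced stress protein gene, had a log2 ratio of 2.06 (1.68 to 2.47), Sesn2, a stress-inducible inhibitor of mTORC1, 2.29 (1.12 to 3.76), Gdf15, a stress-induced cytokine gene, 1.31 (0.86 to 1.78) and Phlda3, an inhibitor of Akt, 1.06 (0.71 to 1.43). Mdm2, the ubiquitin ligase of p53, stood at 1.35 (0.73 to 2.03). With cells thinned to 2000 UMIs Mdm2 was -0.17, Gdf15 0.43 and Phlda3 0.91. With a digestive share of at least 30% Mdm2 was 0.66 and Gdf15 0.93. Cdkn1a, the cell cycle inhibitor p21, and Bax, a pro-apoptotic pore gene, were under 2-fold with log2 ratios of 0.65 (0.51 to 0.79) and 0.81 (0.60 to 1.03). Without cells at or above 1% mitochondrial UMIs the counts of this list were again 5 and 0, and Trp53inp1 stood at 1.44. Gclc, which makes glutathione, had a log2 ratio of 2.45 (1.58 to 3.47), and 1.10 without those cells.

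Duct identity genes as a list did not stand out from all genes. Of 19 measured, 4 were higher and 1 lower, against 16.1% and 9.08% of all genes. The median was -0.11 with TMM, 0.97 with plain CPM and 0.49 with totals without digestive genes. Sox9, the duct transcription factor, stood at 11.6 CPM in positive and 3.4 in negative cells, a log2 ratio of 1.77 (0.80 to 2.93), which was 0.60 without cells at or above 1% mitochondrial UMIs. Its UMIs were found in 13.2% of positive cells against 82.8% of ductal-like cells.

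Single acinar regulators differed in direction. Of 13 acinar transcription factors 3 were higher and 3 lower (median -0.11), against 16.1% and 9.08% of all genes. Bhlha15 (Mist1), which scales the secretory apparatus, was lower, at 9.3 (7.62 to 11.2) against 58.5 (49.6 to 68.4) CPM, a log2 ratio of -2.65 (-3.02 to -2.29). Rbpjl, the acinar subunit of the PTF1 complex, was lower with -1.77 (-1.96 to -1.58), and -0.69 with plain CPM. Ptf1a, which encodes the DNA-binding subunit of that complex, was higher with 1.14 (0.61 to 1.71); it was 0.77 without cells at or above 1% mitochondrial UMIs and 0.62 with thinned cells. Nr5a2, a nuclear receptor gene of acinar cells, stood at 1.22 (0.43 to 2.13), and at -0.14 with thinned cells.

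With TMM most genes of the secretory machinery were lower in positive cells. ER folding and stress genes were lower in 18 of 27 and higher in 1 (median -1.29), against 9.08% lower among all genes. With plain CPM 5 were lower and 2 higher (median -0.21), and with totals without digestive genes 8 and 2 (median -0.69). Derl3, of ER-associated degradation, had a log2 ratio of -3.79 (-4.57 to -3.07), the chaperone gene Creld2 -2.51 (-2.78 to -2.24) and Fkbp11, a secretory-cell prolyl isomerase, -2.99 (-3.17 to -2.81). The 1 gene higher with TMM was Trib3, a stress-response pseudokinase, at 2.37 (1.21 to 3.85). The 18 digestive genes outside the rule were all at least 2-fold lower (median -2.29; -1.21 with plain CPM), and 12 of the 13 inside it were (median -1.74), the latter as a description because their share chose the cells. Zg16, a zymogen granule lectin, had a log2 ratio of -2.99 (-3.03 to -2.96), Prss1, a trypsinogen gene with near-identical copies among which reads may be split, -3.34 (-3.45 to -3.22), and Slc38a5, a glutamine transporter, -2.95 (-3.54 to -2.37).

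Reg and acute phase genes were the third group lower in positive cells, with 6 of 9 lower and 2 higher (median -1.87; -0.79 with plain CPM). Reg proteins are small secreted lectins that acinar cells make in large amounts in pancreatitis, and several are near-identical copies. Reg3b stood at 6581 CPM in positive and 24014 in negative cells, a log2 ratio of -1.87 (-1.88 to -1.85), which was -0.79 with plain CPM. Reg2 had -2.97 (-2.99 to -2.95), Reg3a -2.95 (-3.04 to -2.86) and Reg3g -2.30 (-2.35 to -2.24). Cell cycle genes were lower in 9 of 17 and higher in 0 (median -1.12; -0.04 with plain CPM), with Ube2c, a mitotic ubiquitin-conjugating enzyme, at -3.73 (-4.38 to -3.13) (30 against 92 UMIs).

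The highest ratios over all genes rested on few UMIs in the negative cells. Creb5 had 202 UMIs in positive and 1 in negative cells, a log2 ratio of 5.54 (3.05 to 10.85). Tia1 and Mga also had 1 UMI in negative cells (log2 4.69 (2.18 to 10.01) and 4.53 (2.02 to 9.84)), and Zfp292 and Zfp445 had 2 (log2 3.81 (1.93 to 6.88) and 3.61 (1.72 to 6.67)). With cells thinned to 2000 UMIs Creb5, Tia1, Zfp292 and Zfp445 had 0 UMIs in negative cells and 5 to 9 in positive cells, too few to give a 2-fold difference. Filip1l (3.66 (2.08 to 5.95)), the phosphatase gene Dusp10 (3.17 (1.78 to 5.06)), the lymphotoxin gene Ltb (3.05 (1.47 to 5.35)) and Klhl24 (2.97 (1.72 to 4.61)) stayed at least 2-fold higher there. Without cells at or above 1% mitochondrial UMIs Creb5 stood at 3.73, Tia1 at 2.98 and Dusp10 at 1.94. Crct1 had 106 UMIs against 0 and was at least 8.14-fold higher, with the floor of 3 counts over the negative pool. Among the lowest ratios were the chemokine genes Ccl11 (-3.83 (-4.39 to -3.30)), Cxcl14 (-3.70 (-4.39 to -3.06)) and Ccl7 (-3.10 (-3.64 to -2.58)). One negative cell held 123 of the 128 Ccl11 UMIs and 74 of 81 Cxcl14 UMIs were in 1 cell too, and both ratios turned positive when some cells were left out (0.79 and 1.08). With TMM, fibroblast markers were at least 2-fold lower in 7 of 9 and macrophage markers in 11 of 13 (median -1.35). With plain CPM it was 1 of 9 and 1 of 13 (medians -0.56 and -0.27). A single negative cell held 2294 of the 3499 fibroblast list UMIs of the negative cells. The part of these markers in the chemokine values was not tested.

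**Figure D3:**
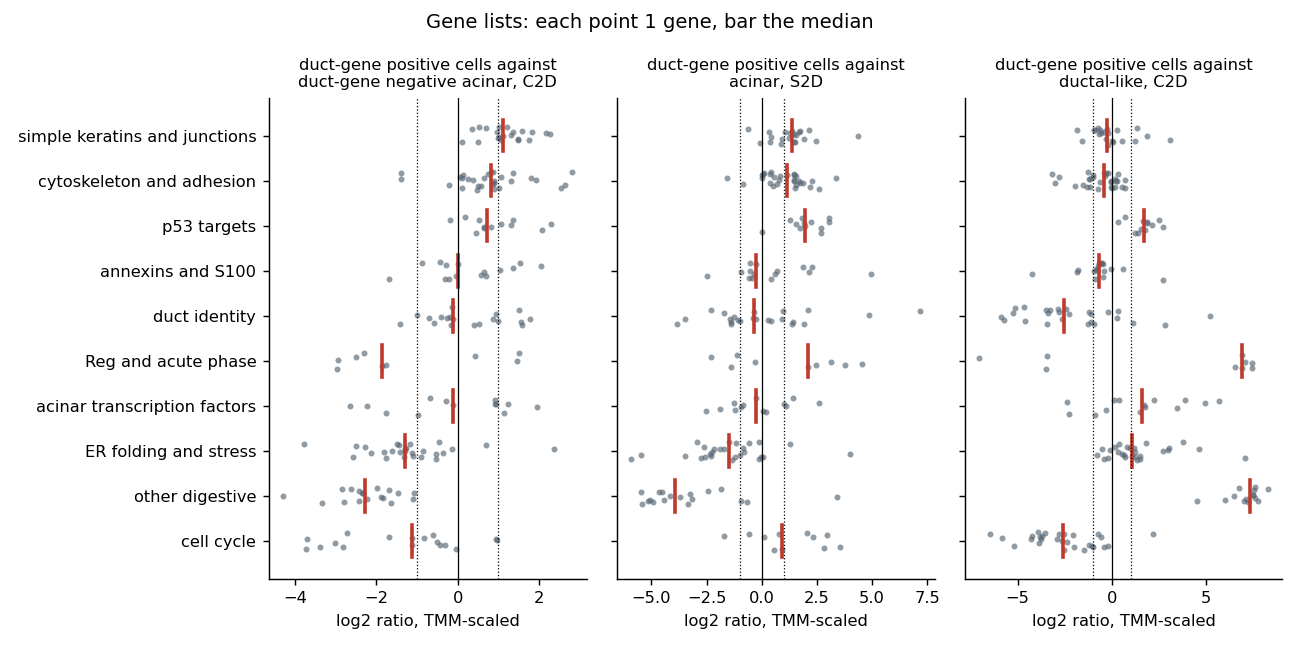
Log2 ratios (horizontal, TMM-scaled) of the genes of 10 lists (vertical) in duct-gene positive cells against negative cells of C2D, acinar cells of S2D and ductal-like cells of C2D. Each point is 1 gene with at least 20 UMIs over both pools, red bars are list medians and dotted lines mark 2-fold; the keratin and junction median is 1.12 in the left panel and the duct identity median -2.55 in the right panel.

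The next comparison set the positive cells against acinar cells of the saline library at 2 days. Only the caerulein side carried the duct-gene condition, so levels of negative cells are given beside for some genes. For the others a ratio to S2D does not tell a trait of positive cells from a trait of all C2D acinar cells. Krt8 and Krt18, most p53 targets, several Reg genes and single genes hardly found in saline acinar cells, such as Tspan1, were higher, and most digestive genes were lower. Among 4347 genes, 880 (20.2%) stood 2-fold or more above S2D and 447 (10.3%) as far below. Plain CPM gave 3861 and 60, and totals without digestive genes 869 and 452. The median log2 ratio was 0.29 with TMM, 2.23 with plain CPM and 0.28 with totals without digestive genes.

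Genes near 0 in saline acinar cells included the most extreme ratios. Tspan1, a tetraspanin of mucosal epithelia, had 1 UMI in S2D and 606 in positive cells, a log2 ratio of 7.17 (4.69 to 12.48). Its level was 52.7 CPM in positive and 58.1 in negative cells, so both kinds of C2D acinar cell were high. Sprr1a, Anxa10, a gastric-epithelium annexin, and Gkn3, a gastrokine, had 0 UMIs in S2D acinar cells and were at least 65, 39.2 and 31.9-fold higher with the floor of 3 counts over the pool. Gkn3 was higher still in negative cells (117 against 35 CPM), while Anxa10 (19.2 against 42.9) and Sprr1a (10.9 against 71.2) were higher in positive cells. The Anxa10 ratio to negative cells of 1.16 was 0.36 with thinned cells.

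Lgals3, the lectin galectin-3, stood at 100.1 (94.4 to 106) CPM in positive, 38.9 (31.7 to 47.1) in negative and 3.29 (1.5 to 6.24) in S2D acinar cells. Its log2 ratio was 4.93 (4.0 to 6.06) to S2D and 1.36 (1.07 to 1.67) to negative cells. Lgals3 is also a macrophage gene, and macrophage list UMIs stood at 359 CPM in positive, 730 in negative and 315 in S2D acinar cells; 1 positive cell held 2027 of their 4124 UMIs, and their part in the Lgals3 level was not tested. Without cells at or above 1% mitochondrial UMIs the Lgals3 ratio to negative cells was 2.00. Lyz2, the macrophage lysozyme gene, was lower in positive than in negative cells (-1.18 (-1.38 to -0.99); -0.11 with plain CPM) and higher than in S2D (1.98 (1.51 to 2.49); 0.12 with thinned cells). Other leading genes were the nucleoside enzyme gene Cda (5.37 (2.87 to 10.68)), the phosphomannomutase gene Pmm1 (4.62 (3.86 to 5.49)), the serpin gene Serpinb6b (4.72 (3.16 to 7.01)), the transcription factor gene Bcl11a (4.85 (2.34 to 10.16)) and Neurl1a (4.81 (2.31 to 10.13)). Bcl11a and Neurl1a rested on 1 UMI each in S2D, and with thinned cells both had 11 UMIs in positive cells and 0 in S2D, too few to give a 2-fold difference.

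Of the 12 p53 targets, 11 were at least 2-fold higher than in S2D and 0 lower (median 1.94), against 18.4% higher and 14.1% lower among all 9412 genes with at least 20 UMIs; without cells at or above 1% mitochondrial UMIs 10 were higher. Bax stood at 137 (130.3 to 144) CPM in positive, 78.1 (67.8 to 89.5) in negative and 16.4 (12 to 22) in S2D acinar cells, a log2 ratio to S2D of 3.06 (2.63 to 3.52). Cdkn1a stood at 284, 181 and 75.6 CPM in the same order, a log2 ratio to S2D of 1.91 (1.70 to 2.12). Each step in that order exceeded its counting intervals. Gdf15 (3.04 (2.28 to 3.92)), Phlda3 (2.67 (2.10 to 3.31)), Trp53inp1 (2.24 (1.84 to 2.67)), the cyclin gene Ccng1 (1.97 (1.56 to 2.40)) and Bbc3 (PUMA, a pro-apoptotic gene; 2.69 (1.74 to 3.84)) were also higher, and Bbc3 was 0.62 with thinned cells.

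Simple keratins and junctions were higher in 14 and lower in 0 of 21 (median 1.36), against 18.4% and 14.1% of all genes. Krt8 and Krt18 stood at 222 and 278 CPM in S2D, and the log2 ratios were 2.44 (2.32 to 2.56) and 2.15 (2.05 to 2.26). Epcam had 1.89 (1.57 to 2.23) (3.19 without cells at or above 1% mitochondrial UMIs) and Cldn6 4.34 (2.97 to 6.22). Cytoskeleton and adhesion genes were higher in 15 and lower in 1 of 29 (median 1.16), with Actn1 at 3.37 (2.88 to 3.89) and Tpm1 at 2.58 (2.16 to 3.03). Clu, a secreted chaperone gene induced by injury, stood at 5429 CPM in positive, 6113 in negative and 1287 in S2D acinar cells, a log2 ratio to S2D of 2.08 (2.03 to 2.13). Its log2 ratio to negative cells was -0.17 (-0.20 to -0.15) with TMM but 0.91 with plain CPM and 0.15 without cells at or above 1% mitochondrial UMIs. Among cell cycle genes 5 of 11 were higher and 1 lower (median 0.93), and Stmn1, a microtubule-destabilising gene, had a log2 ratio of 3.52 (2.77 to 4.40). The median of the cell cycle list against negative cells was -1.12 over 17 genes. The glutathione peroxidase gene Gpx2 had 3.52 (2.52 to 4.74).

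Reg and acute phase genes were higher in 5 and lower in 3 of 9 (median 2.08), the opposite side from the comparison within C2D. Reg3b stood at 280.2 CPM in S2D and had a log2 ratio of 4.55 (4.45 to 4.66), with 3.77 (3.49 to 4.07) for Reg3g, 3.16 (2.71 to 3.64) for Reg3a and 2.44 (2.36 to 2.53) for Reg2. The positive cells therefore lay between saline and negative cells for these 4 genes. Reg3d was lower, -1.14 (-1.28 to -0.99), but 0.80 with plain CPM. Prss1 followed the same order, with 7.31, 77.8 and 786 CPM in S2D, positive and negative cells.

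Digestive genes outside the rule were at least 2-fold lower in 15 of 18 and higher in 1 (median -3.94). Those of the rule, as a description, ranged from Pnlip, pancreatic lipase, at -6.46 and Cela1, an elastase, at -5.40 to Try5, a trypsinogen, at -0.66, with Cpa1 at -3.48. The members of the digestive set were thus unequally low. With rule genes and immunoglobulin genes left out, the 10 lowest ratios were those of Hamp2 (-6.39 (-6.90 to -5.92)), Tmed11 (-6.27 (-7.04 to -5.58)), Pdia2, the pancreatic disulfide isomerase (-5.91 (-6.06 to -5.77)), Slc38a5 (-5.59 (-6.09 to -5.12)), Zg16 (-5.56 (-5.59 to -5.53)), Gal (-5.55 (-5.89 to -5.23)), Derl3 (-5.47 (-6.19 to -4.82)), Ctrc, chymotrypsin C (-5.41 (-5.66 to -5.17)), and Amy2a3 and Amy2a2, amylase copies that reads cannot surely tell apart (-5.46 (-6.50 to -4.56) and -5.18 (-5.97 to -4.47)). ER folding and stress genes were lower in 17 and higher in 2 of 27 (median -1.47; 14.1% of all genes were lower), but their median was 0.46 with plain CPM. All 5 measured B and plasma cell markers, which acinar cells should lack, were lower (median -6.72), as was Igkc, an immunoglobulin gene (-7.70); their part in the results was not tested.

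Acinar transcription factors were higher in 3 and lower in 4 of 13 (median -0.25), against 18.4% and 14.1% of all genes. Bhlha15 had a log2 ratio of -2.52 (-2.89 to -2.15) and -0.58 with plain CPM, and Rbpjl -1.26 (-1.46 to -1.04) but 0.68 with plain CPM. Ptf1a stood at 26.5 CPM in positive and 25.2 in S2D acinar cells, a log2 ratio of 0.07 (-0.31 to 0.47), which was -0.79 without cells at or above 1% mitochondrial UMIs and 2.01 with plain CPM. Duct identity genes were higher in 6 and lower in 9 of 23 (median -0.33; 1.60 with plain CPM), and without acinar cells at or above 1% mitochondrial UMIs 8 were higher and 2 lower of 17 (median 0.98). Sox9 was at 27.8 CPM in S2D, a log2 ratio of -1.26 (-1.68 to -0.84), and 0.67 with plain CPM.

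**Figure D4:**
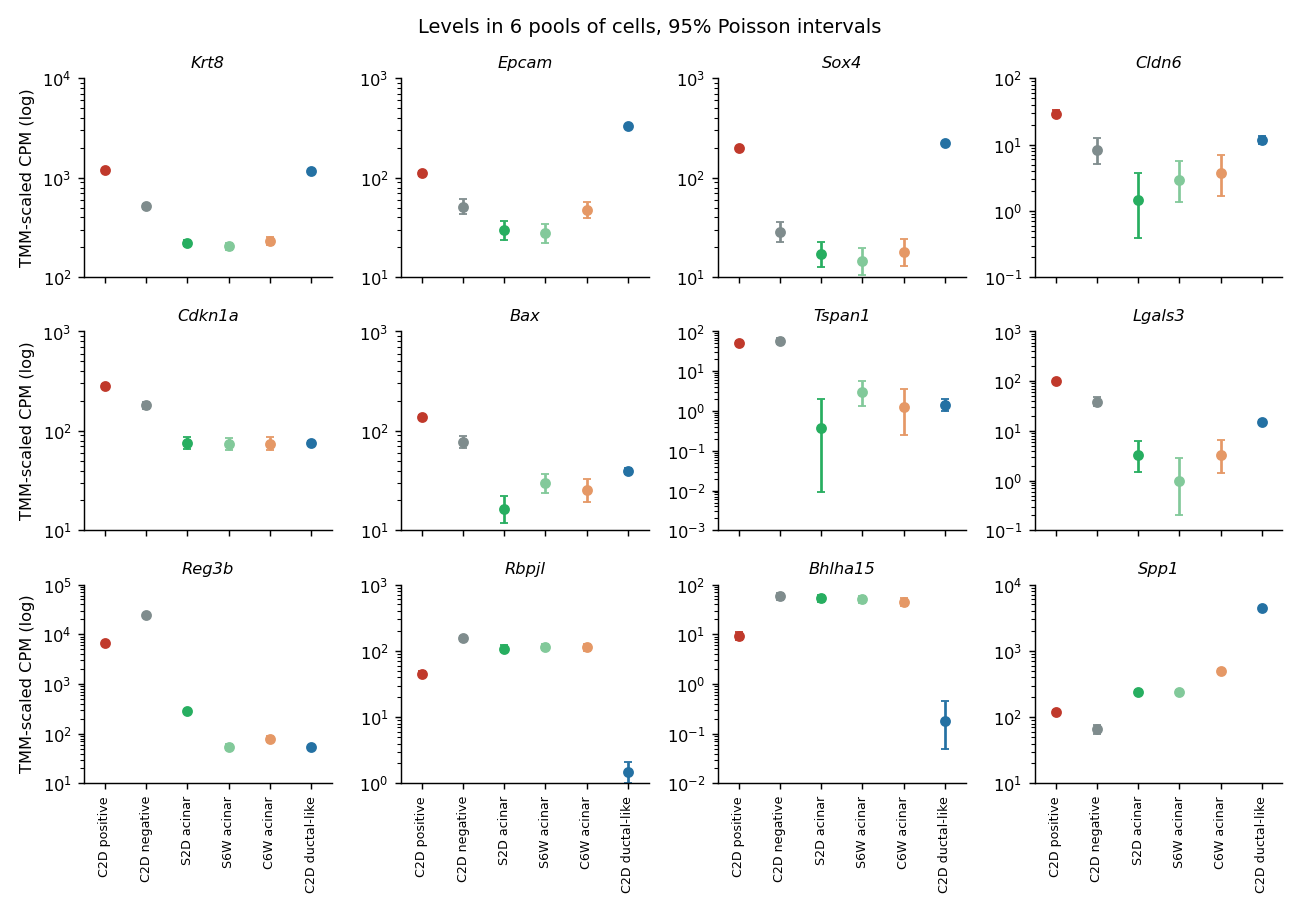
TMM-scaled CPM (vertical, log axis, own range for each gene) of 12 genes in 6 pools of cells, each pool 1 library, with exact 95% Poisson intervals of the summed UMIs; C2D positive stands for the duct-gene positive acinar cells. With this scaling Sox4 and Krt8 in these cells lie within 2-fold of ductal-like cells (log2 -1.52 and -1.31 with plain CPM), Reg3b and Rbpjl are higher and Spp1 is far lower.

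The comparison with ductal-like cells of the same library shows where positive cells stood against cells that carried the same duct genes and few digestive UMIs. With TMM scaling they were within 2-fold of them in Krt8 and Krt18 but lower in duct regulators, and had higher levels of acinar, Reg and p53-target genes. Among 7567 genes, 1056 (14%) stood 2-fold or more above ductal-like cells and 973 (12.9%) as far below. Plain CPM gave 162 and 4810, and totals without digestive genes 310 and 2527. The median log2 ratio was 0.06 with TMM, -1.29 with plain CPM and -0.64 with totals without digestive genes. Krt8 and Krt18 had log2 ratios of 0.04 (0.01 to 0.07) and 0.04 (0.01 to 0.07) with TMM, and -1.31 and -1.31 with plain CPM. Clu had 0.31 (0.29 to 0.32) and -1.04 with plain CPM. Sox4 had -0.16 (-0.24 to -0.09) with TMM, and was lower under both alternatives given above.

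Duct identity genes were lower in 19 and higher in 3 of 26 (median -2.55), against 18.1% lower and 12.8% higher among all 11581 genes with at least 20 UMIs. Spp1 stood at 119.6 (113 to 126) CPM in positive and 4465 (4437 to 4493) in ductal-like cells, a log2 ratio of -5.22 (-5.30 to -5.15), or -6.84 without acinar cells at or above 1% mitochondrial UMIs. The duct transcription factor genes Sox9 (-2.86 (-3.12 to -2.60)) and Ehf (-2.78 (-3.10 to -2.47)) were lower. Pkhd1, a cilium gene mutated in polycystic kidney disease (-4.68 (-5.69 to -3.83)), the carbonic anhydrase gene Car2 (-5.75 (-7.20 to -4.62)) and Lcn2, a secreted siderophore-binding protein (-7.05 (-7.41 to -6.71)), were lower as well. Onecut2, with 0 UMIs in positive cells, was at least 35.8-fold lower with the floor of 3 counts. Epcam was lower with -1.57 (-1.65 to -1.48).

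Acinar genes were far higher than in ductal-like cells, which were chosen for a digestive share under 10%. The 14 measured digestive genes outside the rule were all at least 2-fold higher (median 7.36), and so were 8 of 10 zymogen granule genes. The highest ratios were those of Gp2 (8.76 (8.01 to 9.63)), the kallikrein Klk1 (8.31 (7.98 to 8.66)), Sycn (7.83 (7.62 to 8.05)), Cuzd1 (7.77 (7.20 to 8.42)) and Prss1 (7.76 (6.78 to 8.98)). Of 14 acinar transcription factors 8 were higher and 2 lower (median 1.61; 12.8% of all genes were higher). Bhlha15 had a log2 ratio of 5.70 (4.30 to 7.60), Rbpjl 4.93 (4.43 to 5.49), Gata4 3.89 (3.02 to 4.90) and Ptf1a 3.48 (3.05 to 3.93). Rbpjl had a UMI in 41% of positive cells, 7.88% of ductal-like cells and 0% of T cells.

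Reg, p53-target and cell cycle genes also differed from ductal-like cells. Reg3b had a log2 ratio of 6.94 (6.86 to 7.03), and 6 of 9 Reg and acute phase genes were higher and 3 lower (median 6.91). Tspan1 (5.20 (4.68 to 5.76)), Anxa10 (5.26 (4.68 to 5.90)), Gkn3 (7.28 (6.05 to 8.91)) and Cldn18, the gastric claudin (4.54 (2.53 to 7.67)), were higher, as was Lgals3 (2.72 (2.55 to 2.90)). Of 12 p53 targets 10 were higher and 0 lower (median 1.72; 0.37 with plain CPM), with Ccng1 at 2.73 (2.52 to 2.94), Cdkn1a at 1.90 (1.81 to 1.99) and Bax at 1.79 (1.67 to 1.91); with plain CPM Cdkn1a stood at 0.55 and Bax at 0.44. Nes, an intermediate filament gene of progenitors, had 3.76 (3.38 to 4.18). Cell cycle genes were lower in 22 and higher in 1 of 28 (median -2.60), with Mki67 at -5.19 (-7.07 to -3.81) and Cenpf at -6.50 (-9.55 to -4.63) on 4 and 2 UMIs in the positive cells.

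The lowest ratios to ductal-like cells were those of Wfdc18 and of hormone genes. Wfdc18 had -9.01 (-11.29 to -7.46) on 3 UMIs in positive cells. The hormone genes Gcg (-11.19 (-16.49 to -8.71)), Sst (-9.92 (-11.80 to -8.57)) and Iapp (-9.85 (-15.15 to -7.37)) had 1 to 4 UMIs in positive cells, and Pyy had 0 and was at least 402-fold lower. Of the 203 ductal-like cells 5 held at least 50 hormone UMIs, against 0 of 393 positive cells with at least 10, and without those 5 the Sst ratio was 1.35.

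Within the positive cells, levels were ordered by the digestive share, an axis the rule used, as a description. The bins of 10 to 20%, 20 to 30%, 30 to 40% and at least 40% held 105, 88, 82 and 118 cells, with medians of 7960, 7295.5, 10944.5 and 14474 UMIs, 1832, 1584.5, 1723 and 1222 genes and 9, 6, 5 and 4 duct-gene UMIs. Levels are CPM over the UMIs outside the 35 digestive genes, in that order of bins. Krt19 was highest in the first bin, at 719, 590.0, 557 and 593, and Cldn4 was lower where the digestive share was high, at 719, 733, 374 and 112. Sox4 ran in the same direction as Cldn4, at 834, 895, 445 and 54.3. The stress genes Cdkn1a (1150.3, 1025, 712 and 333), Bax (501, 489.5, 371 and 228) and Gdf15 (211, 122, 72.5 and 44.9) were also lowest in the cells with the highest digestive share. So were Epcam (432, 414, 260.1 and 168) and Ptf1a (99.2, 109, 75.1 and 23.6).

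Other genes ran the opposite way. Reg3b stood at 6128, 11267, 23619 and 46701, Reg2 at 890.5, 2215, 6024 and 21578, Clu at 10375, 11231, 18777 and 28725, Lgals3 at 184, 239, 271 and 577 and Tspan1 at 101, 111, 194 and 265. Krt18 stood at 3253, 3047, 3526 and 5314. The positive cells with most enzyme RNA thus carried the most Reg, Clu and Lgals3 per UMI outside the digestive genes and the least Cldn4 and Sox4. In the 338 positive cells under 1% mitochondrial UMIs (81, 74, 72 and 111 per bin), Krt19 stood at 849, 711, 617 and 598, Cldn4 at 574, 515, 380.2 and 116 and Cdkn1a at 910.4, 1084, 706 and 317. Sox4 there was 295, 418, 430.2 and 49, lower than in all positive cells below 30% digestive share and lowest again at 40% or more. Cells of 1 library are not replicates, so the spread between animals of this ordering is unknown.

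**Figure D5:**
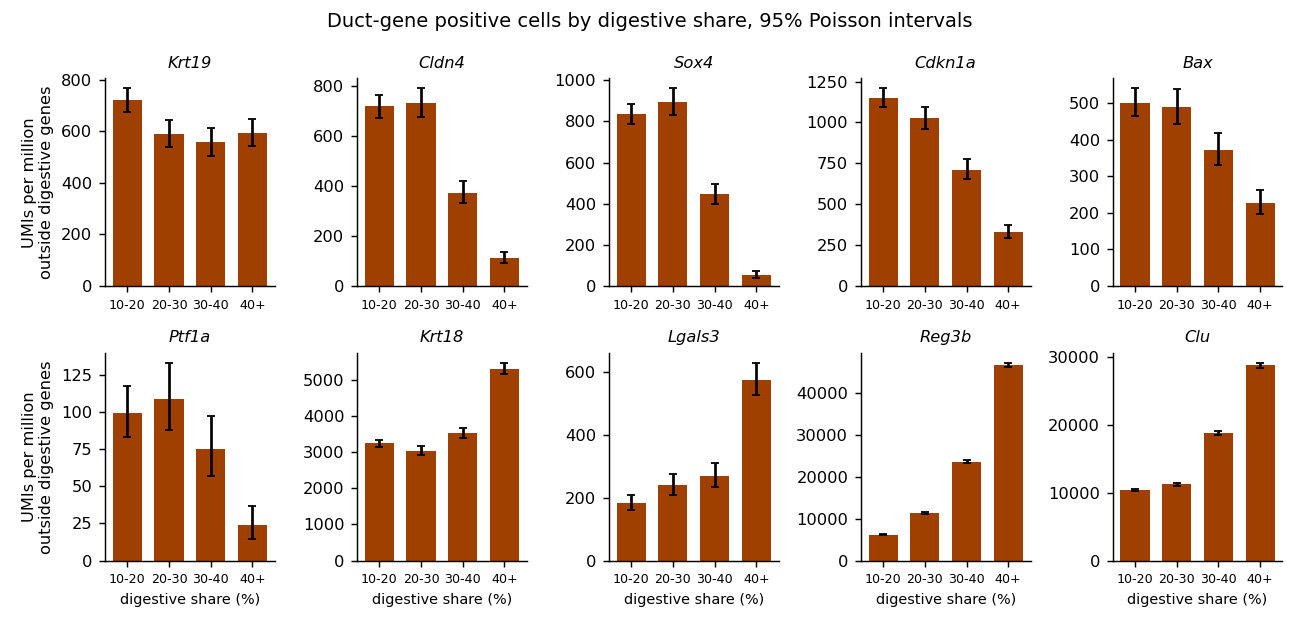
CPM over UMIs outside the digestive genes (vertical, from 0) of 10 genes in the duct-gene positive cells split by digestive share (horizontal, percent; 105, 88, 82 and 118 cells), with exact 95% Poisson intervals. Cldn4, Sox4 and Cdkn1a are lowest and Reg3b, Clu and Lgals3 highest in the bin of at least 40%.

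At 6 weeks the acinar cells of the caerulein library were taken without a duct-gene condition. They stood below the positive cells of C2D in Krt8, Cdkn1a, Bax, Lgals3 and Reg3b. Negative cells of C2D were also above them in these genes, at the levels given earlier. Krt8 stood at 232 (213 to 252) CPM in C6W and 206 (189.9 to 223) in S6W acinar cells, against 1201 in positive cells. Cdkn1a stood at 74.5 and 74, Bax at 25.4 and 29.7, Lgals3 at 3.27 and 0.991 and Reg3b at 78.6 (67.9 to 90.5) and 54.5 (46.5 to 63.5) CPM in C6W and S6W. The intervals overlapped for Krt8, Cdkn1a, Bax and Lgals3, and those of Reg3b did not. These overlaps rest on the TMM scaling, whose factors were 0.641 for C6W and 0.380 for S6W. With plain CPM all C6W levels would be higher relative to those of S6W. Anxa10 had 4 UMIs in C6W and 0 in S6W acinar cells, and Gkn3 had 0 in both. Intervals were also separate for Epcam, at 47.5 (39.2 to 57) in C6W and 27.7 (22.1 to 34.4) in S6W, and for Spp1, at 503 (475 to 532) and 239 (222 to 257). One cell held 361 of the 723 Spp1 UMIs of S6W and another 274 of 1229 in C6W, and without these the levels were 391 (367 to 417) in C6W and 119.6 (107.6 to 132.5) in S6W. Bhlha15 and Rbpjl stood at 44.6 and 114 CPM in C6W, near the saline levels of 50.5 and 116.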

How the data were processed

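The authors deposited raw UMI counts of 31053 genes for barcodes already called as cells. Cell Ranger 3.0.2, FastQC and mm10 are named in the submitters' processing notes. Sequencing depth per library was 36914373 (S2D), 71547194 (C2D), 29145886 (S6W) and 33788935 (C6W) UMIs. The cells, gene lists and comparisons were chosen with earlier results of these data known. UMIs were summed per pool and scaled by TMM over 6 pools (edgeR 4.0.16, R 4.3.3, Python 3.11.15, scanpy 1.11.5). Ratios carry exact conditional binomial 95% intervals, levels Poisson and shares Clopper-Pearson intervals. A gene was counted as different at an absolute log2 ratio of 1 among genes with at least 100 UMIs over both pools; lists used at least 20. A pool at 0 was given 3 counts over the pool, and such ratios are bounds.

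Genes were named by a rule: the 10 highest and 10 lowest ratios to negative cells and to S2D, 5 and 5 to ductal-like cells, up to 4 genes per list with the largest ratios, the 17 rule genes and a fixed set of acinar, duct and marker genes, leaving out mitochondrial, ribosomal, haemoglobin, immunoglobulin (other than Igkc), sex-linked and unnamed genes; some genes are not reported here, and the text prints part of the rest. Alternatives were other scalings (DESeq2 1.42.0 size factors among them), minimums, depths, cell filters, doublet removal, macrophage UMIs and rule thresholds. Coordinates are GENCODE positions on GRCm38 matched by Ensembl identifier. On simulated data with 200 genes changed, a log2 change of 1 was recovered at medians of 0.98 (negative cells), 1.01 (S2D) and 0.98 (ductal-like cells). Of such genes 46%, 52% and 44% were called, and of unchanged genes 0.0246%, 0% and 0.027%. Both simulated pools had the same profile apart from the changed genes. Differences in digestive RNA between pools and single cells rich in a gene were not simulated, so these rates do not cover them.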

Additional observations from a re-analysis of the deposited data

Results flagged for a closer look

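Barcodes left out of the acinar cells because they held Ptprc gave a duct-gene signal of their own. In C2D, 43 of 77 barcodes with at least 10% digestive UMIs and a Ptprc UMI had at least 2 duct-gene UMIs, 55.8% (44.1 to 67.2), close to the 55.5% of Ptprc-negative acinar cells. In S2D it was 0 of 41, where 3 counts of the total would be 7.32% and the exact interval reached 8.60%. It was 1 of 9 in S6W (11.1%, 0.281 to 48.2) and 1 of 14 in C6W (7.14%, 0.181 to 33.9). The S6W interval overlapped that of C2D. The C2D share was picked out as a signal in data outside the comparisons, above the level of the saline library. The cells behind these barcodes were not identified further.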

How the results depend on the processing

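No paired analysis was possible because each group is 1 library. Counts are given as genes at least 2-fold higher and lower than in negative cells, S2D acinar cells and ductal-like cells; with the values reported they were 421 and 358, 880 and 447, and 1056 and 973. Plain CPM gave 2338 and 59, 3861 and 60, and 162 and 4810; totals without digestive genes gave 1183 and 134 against negative cells and 310 and 2527 against ductal-like cells. A minimum of 400 UMIs gave 67 and 161, 299 and 155, and 600 and 298, and no minimum 1763 and 1808, 1967 and 2560, and 1871 and 2818. Cells thinned to 2000 UMIs gave 30 and 81, 237 and 105, and 347 and 161, with fewer genes tested. Cells of 5000 to 30000 UMIs gave 159 and 221 against negative cells and 262 lower than S2D; cells with at most 2 macrophage UMIs gave 160 and 198 against negative cells and 642 lower than ductal-like cells. A digestive share of at least 30% left 200 positive cells (43.0% of acinar cells), with 117 and 117, 439 and 259, and 1506 lower than ductal-like cells. A duct-gene sum of at least 1 raised the share to 71.3%, and of at least 5 lowered it to 32.2% (228 cells). Leaving out acinar cells at or above 1% mitochondrial UMIs, chosen after seeing the data, gave 186 and 199, and 1589 lower than ductal-like cells. Fewer genes met the minimum in several of these settings, which bears on the counts. Against negative cells 4269 genes were compared in the values reported and 1293 with a minimum of 400 UMIs. There were 2576 with 5000 to 30000 UMIs, 2500 with at most 2 macrophage UMIs and 2042 with a digestive share of at least 30%. Under 1% mitochondrial UMIs there were 2777. The cause of the other changes was not tested. Leaving out hormone-rich ductal-like cells or the cell highest in Spp1, also chosen after seeing the data, Scrublet removal, DESeq2 size factors, the stricter cell filter and negative cells with a sum of 0 kept every count within 1.5 times.

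Shares of acinar cells with at least 2 duct-gene UMIs were 26.1% (C2D), 1.41% (S2D), 1.37% (S6W) and 1.93% (C6W) when thinned to 2000 UMIs, and 4.52%, 0.210%, 0.427% and 0.521% when thinned to 300 UMIs outside the 35 digestive genes. Of 144 named ratios of at least 2-fold, 2460 of 2469 values under alternatives kept their sign. The 9 that did not were Reg3d (0.80), Sox9 (0.67) and Rbpjl (0.68) against S2D with plain CPM; Mdm2 (-0.17) and Nr5a2 (-0.14) against negative cells when thinned; Ccl11 (0.79) without the highest Scrublet scores; Cxcl14 with at most 2 macrophage UMIs (1.08) and with a duct-gene sum of at least 1 (1.25); and Sst (1.35) without hormone-rich ductal-like cells. A further 7 thinned values, of Sox9, Creb5, Tia1, Zfp292 and Zfp445 against negative cells and Bcl11a and Neurl1a against S2D, had 0 UMIs in 1 pool and gave none. Without acinar cells at or above 1% mitochondrial UMIs, 56 of 59 named ratios to negative cells, 51 of 51 to S2D and 34 of 34 to ductal-like cells remained at least 2-fold. In that setting 58 of 154 named ratios moved by over 1.5 times, 22 of 64 to negative cells, 15 of 52 to S2D and 21 of 38 to ductal-like cells.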

Other observations

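Other gene groups were compared with negative cells, where 16.1% of all genes were higher and 9.08% lower. Of 14 AP-1 and immediate early genes 2 were higher by 2-fold or more and 0 lower (median -0.13), while 1 was higher and 6 lower than in S2D, where Fosb stood at -2.06 (-2.20 to -1.92) (-0.12 with plain CPM). None of 18 autophagy and lysosome genes differed at least 2-fold from negative cells in either direction. NF-kB and chemokine genes were lower in 6 and higher in 1 of 16 against negative cells, with Cxcl2, a neutrophil chemoattractant, at -2.15 (-2.38 to -1.91) and Relb, a subunit of the non-canonical pathway, at 1.71 (0.98 to 2.54).

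Antigen presentation and interferon genes were higher in 2 and lower in 4 of 19 against negative cells. Cd74 and H2-Ab1, which serve class II presentation, stood at -1.99 (-2.29 to -1.69) and -1.91 (-2.30 to -1.51), with -0.91 and -0.83 under plain CPM. Macrophage list UMIs were also lower in positive cells with TMM (359 against 730 CPM), and their part in these values was not tested. The median log2 ratio of that list was -1.35 with TMM but -0.27 with plain CPM. The median cell held 3 of its UMIs in both pools. Among heat shock genes Hspb1, a small chaperone, was higher than in negative cells (1.27 (1.07 to 1.46)), and Hspa1a, induced by heat and dissociation, was lower than in S2D (-3.73 (-4.20 to -3.28)).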
